A study of Mus musculus with 15 samples.

Results

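Goblet cells are the mucus-secreting cells of the intestinal epithelium, and 9 genes that mark them were followed in the ileum of mice that had been dosed with proanthocyanidins. The genes *Muc2*, *Tff3*, *Clca1*, *Fcgbp*, *Agr2*, *Zg16*, *Spdef*, *Spink4* and *Retnlb* were taken by their symbols from the 17752 genes listed in at least 1 mouse, and all 9 were found. Proanthocyanidins (PAC) are plant polyphenols built as chains of flavan-3-ol units, and their mean degree of polymerization (mDP) is the average chain length. Female C57BL/6 mice (C57BL/6JOlaHsd in the study's methods), 8 weeks old by the labels, received water or 200 mg/kg of PAC purified from grape by gavage every 2 days for 10 days, with 5 mice in each of 3 groups. The groups were water, low mDP PAC and medium mDP PAC, and the labels name the last of these High PAC, of high molecular weight. All mice ate the same purified diet, and the PAC groups had no other treatment. The RNA came from tissue of the ileum, which the labels give as intestinal tissue. The study's methods do not name the layers of the wall that were taken.

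Goblet cells differentiate in the crypts from secretory progenitors and load their granules with the gel-forming mucin MUC2, which unfolds on release into the mucus that separates the epithelium from the lumen. MUC2 is made as a very large glycoprotein that depends on a protein disulphide isomerase, AGR2, in the endoplasmic reticulum, and the transcription factor SPDEF drives the late steps of goblet cell maturation. FCGBP, CLCA1, ZG16 and TFF3 are secreted with MUC2 and form part of the mucus or of its processing, while RELMβ, the product of *Retnlb*, is a small antibacterial protein that is made in quantity mainly in the colon and during worm infection. In a bulk sample, fewer goblet cells and less RNA in each goblet cell cannot be told apart.

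The start regions of *Muc2* and *Fcgbp* are printed because *Fcgbp* was the member with the highest correlation to *Muc2* across the mice (r = 0.59 over 15 mice), a value that rests on single mice, as described further on. Of the 9 members, *Muc2*, *Fcgbp*, *Agr2* and *Spdef* had an entry in the RefSeq promoter table of GRCm38.p6, so 4 of 9 were searched, each over the 250 bases before the annotated start. The 250 bases of *Muc2* span chr7:141690090-141690339 and those of *Fcgbp* span chr7:28070986-28071235, both on the plus strand. They are given 5′ to 3′ in lower case, with the palindromic E-box CAGCTG, a sequence that basic helix-loop-helix factors bind, in capitals.
Muc2: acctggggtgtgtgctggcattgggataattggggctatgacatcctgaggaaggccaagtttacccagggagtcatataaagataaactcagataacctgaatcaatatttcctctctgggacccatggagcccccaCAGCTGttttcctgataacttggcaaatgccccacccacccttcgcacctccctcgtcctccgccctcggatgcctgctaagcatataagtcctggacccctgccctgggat
Fcgbp: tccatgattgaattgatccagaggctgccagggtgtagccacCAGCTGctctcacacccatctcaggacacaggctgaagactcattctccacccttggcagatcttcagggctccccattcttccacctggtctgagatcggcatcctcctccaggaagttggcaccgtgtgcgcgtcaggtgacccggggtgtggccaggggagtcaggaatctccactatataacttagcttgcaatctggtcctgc
The E-box begins 112 bases before the start of *Muc2* and 208 bases before that of *Fcgbp*, and neither *Agr2* nor *Spdef* holds it. Searched on both strands, CAGCTG occurs in 13% of the 32851 start regions of the table, CAGATG in 14.4%, the forkhead letters TGTTTAC in 3.17% and the ETS-type letters CCGGAT in 4.94%. The last 3 were found in none of the 4 members, which says only that these letters are not in these windows.

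The depth was even. The expected counts summed to between 15963086 and 17903886 per mouse, and 16138 to 16392 genes were listed in each. The goblet cell genes took 1.59% to 2.27% of these counts in a mouse. The identity of the tissue was checked with *Fabp6*, the bile acid binding protein of the distal small intestine. Its level is given as FPKM (fragments scaled to the length of the transcript and the size of the library, the level per length used below). The mean was 5679 ± 1318 (SD, n = 5) in the water group, 7011 ± 657 in the low mDP group and 7789 ± 1749 in the medium mDP group. The lowest values were those of water mice 4 and 5, at 4307 and 4196, and the highest was that of medium mDP PAC mouse 3, at 10620. The other genes of the distal ileum are described further on. The labelled cell type was also present by its gel: *Muc2* was at no less than 449.8 FPKM in any mouse, whereas *Muc5ac*, *Muc5b*, *Muc6* and *Muc19*, the gel-forming mucins of other organs, and the gastric trefoil factor gene *Tff2* had at most 4 counts in a mouse.

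One library stood apart before any comparison was made. In medium mDP PAC mouse 3, the median log2 FPKM of 896 genes with transcripts under 1000 bases, relative to their mean over all mice, was 0.75 above that of 2109 genes with transcripts over 5000 bases. In the other 14 mice this difference ran from −0.21 to 0.10. Among the goblet cell genes, *Tff3*, *Zg16*, *Agr2* and *Spink4*, whose transcripts are 458, 682, 760 and 402 bases long, were each at their highest FPKM of all 15 mice there, and *Muc2*, with a transcript of 7368 bases, was at its lowest. *Clca1*, with a transcript of 2935 bases, was also at its highest there, at 1619.7 FPKM, with 1562 in the next mouse. The FPKM ratio of *Tff3* to *Muc2* was 9.93 in mouse 3 and 3.22 to 5.03 in the others, and that of *Zg16* to *Fcgbp*, whose transcript has 7957 bases, was 9.49 against 4.37 to 6.42. *Fcgbp*, the longest member, was not low in that mouse, at 0.13 above its group mean on log2 CPM (counts scaled to the library size, with TMM factors), and its ratio to *Muc2* was 1.96 there and 1.05 to 1.64 in the others. The comparisons of the members, and the gene lists in medium mDP PAC against water, are also given without mouse 3. The part of transcript length in the results was not tested.

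**Figure D1:**
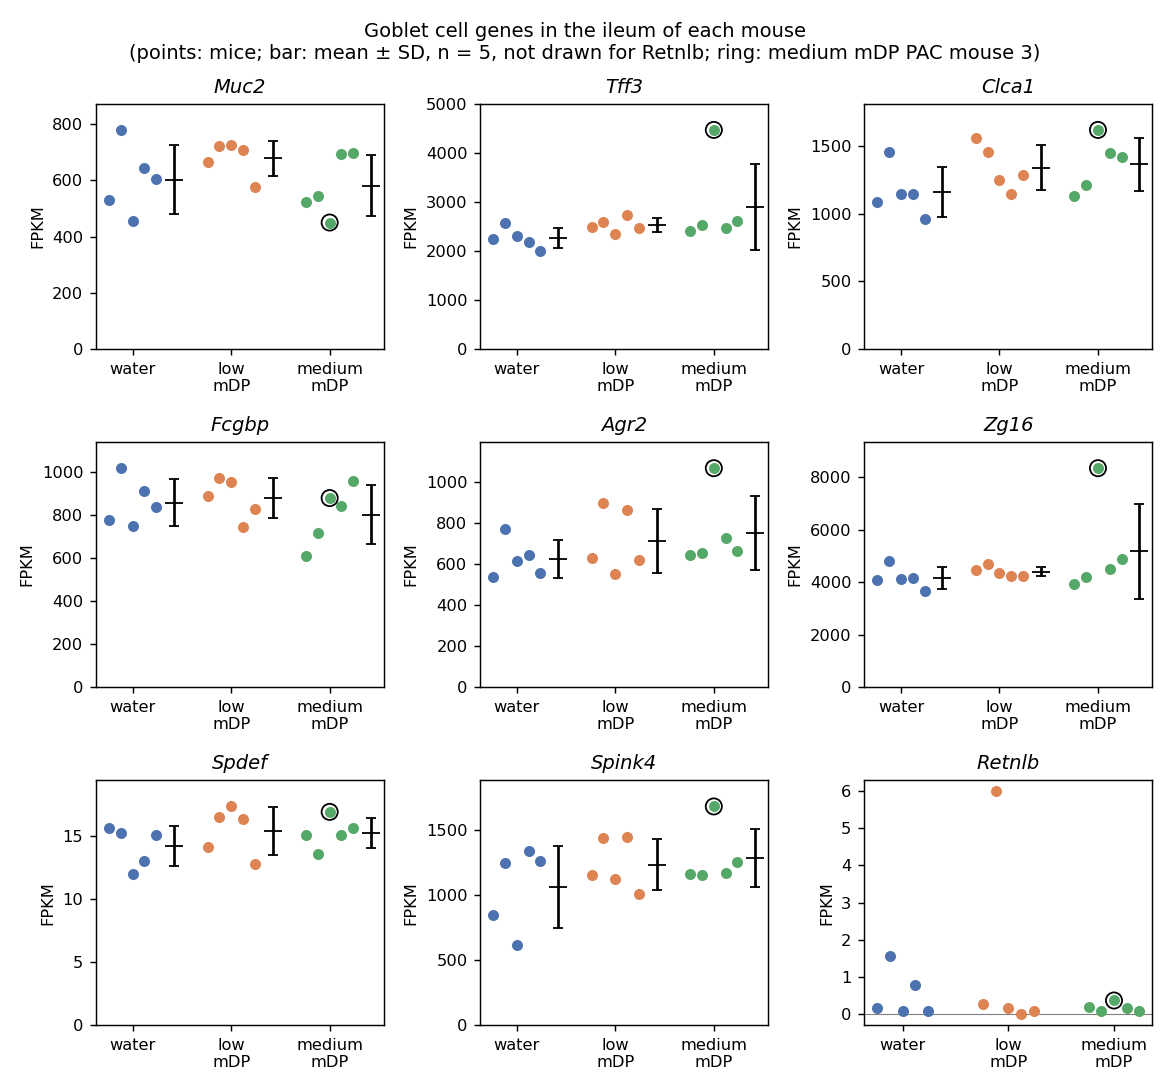
FPKM of the 9 goblet cell genes on a linear axis for each mouse, by group; points are mice in the order of their numbers, bars the mean ± SD (n = 5, not drawn for Retnlb), and the ring marks medium mDP PAC mouse 3. That mouse has the highest Tff3, Zg16, Agr2, Spink4 and Clca1 and the lowest Muc2, and the groups overlap in every panel.

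*Muc2* (gene 17831, chr7:141690340-141754691) encodes the mucin itself. Its FPKM in the 5 water mice was 531, 779, 456, 643 and 603, in the low mDP PAC mice 664, 722, 726, 708 and 575, and in the medium mDP PAC mice 524, 543, 449.8, 694 and 697. The means were 603 ± 122, 679 ± 62.8 and 581 ± 110 (SD, n = 5). The low mDP PAC mice all lay within the range of the water mice, and of the medium mDP PAC mice only mouse 3 lay outside it, just below. *Muc2* reads were plentiful, from 56644 to 94010 counts per mouse, so counting error was small beside the spread, in which mice and their libraries cannot be told apart.

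*Fcgbp* (gene 215384, chr7:28071236-28120864) encodes the IgG Fc binding protein that is linked to the mucin gel. Its FPKM was 778, 1019, 747, 911 and 838 in the water group, 889, 973, 952, 746 and 829 in the low mDP group and 612, 715, 879.6, 843 and 959 in the medium mDP group. The ranges overlapped, and the lowest values of all 15 mice were those of medium mDP PAC mice 1 and 2. Its expected counts were fractional in all 15 mice, as they are where reads are divided between genes, whereas the counts of the other 8 members were whole in every mouse.

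*Clca1* (gene 23844, chr3:145004537-145032776) encodes a secreted metalloprotease of the mucus. Its FPKM was 1084, 1458, 1143, 1147 and 961 in the water group, 1562, 1456, 1248, 1146 and 1287 in the low mDP group and 1130.1, 1214, 1619.7, 1449 and 1420.2 in the medium mDP group. In each PAC group 1 mouse exceeded the highest water mouse.

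*Zg16* (gene 69036, chr7:127050156-127052675) encodes a lectin that binds the peptidoglycan of Gram-positive bacteria, and it was the most abundant of the 9 genes. Its FPKM was 4085, 4809.8, 4127, 4175 and 3665 in the water group, 4484, 4698, 4353, 4248 and 4255 in the low mDP group and 3928, 4219, 8350, 4492 and 4898 in the medium mDP group. The mean of 5177 ± 1809 (SD, n = 5) in the last group was 4384 ± 413 (SD, n = 4) without mouse 3, against 4172 ± 410 with water.

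*Tff3* (gene 21786, chr17:31125306-31129611) encodes the intestinal trefoil factor, a small peptide that promotes repair of the epithelium. Its FPKM was 2247, 2559, 2296, 2190.3 and 1988 in the water group, 2481, 2594, 2338, 2735 and 2469.5 in the low mDP group and 2413, 2534, 4467, 2458 and 2610.4 in the medium mDP group. Both PAC groups lay toward the upper end of the water range, with 2 of 5 mice above the highest water mouse in each and none below the lowest. The medium mDP PAC mean of 2896 ± 881 was 2504 ± 86.9 without mouse 3, close to the 2524 ± 149 of the low mDP PAC group and above the 2256 ± 206 of the water group.

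*Agr2* (gene 23795, chr12:35992925-36004081), the folding enzyme of the mucin, had an FPKM of 536, 771, 613, 644 and 555 in the water group, 627, 896, 553, 865 and 618 in the low mDP group and 645, 652, 1066, 726 and 662 in the medium mDP group. *Spdef* (gene 30051, chr17:27714446-27731003), the transcription factor, was at 15.6, 15.2, 12, 13.1 and 15.1 in the water group, 14.1, 16.5, 17.3, 16.4 and 12.8 in the low mDP group and 15.1, 13.6, 16.9, 15 and 15.6 in the medium mDP group. *Spdef* was the steadiest member, with all 15 mice between 12 and 17.3 FPKM, and its medium mDP PAC mouse 3, at 16.9, did not leave the range of the low mDP PAC mice.

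*Spink4* (gene 20731, chr4:40920056-40931395) encodes a Kazal-type serine protease inhibitor of goblet cells. Its FPKM was 848, 1247, 615, 1341 and 1261 in the water group, 1153, 1438, 1127, 1444 and 1012 in the low mDP group and 1165, 1151, 1680.2, 1169 and 1254 in the medium mDP group. It varied most of the abundant members within the water group, where mice 1 and 3 were low and the SD was 29.7% of the mean.

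*Retnlb* (gene 57263, chr16:48816856-48818892) was close to absent. Its counts were 2, 16, 1, 9 and 1 in the water mice, 3, 68, 2, 0 and 1 in the low mDP PAC mice, and 2, 1, 4, 2 and 1 in the medium mDP PAC mice. A single animal, low mDP PAC mouse 2, held 5.99 FPKM, and no other mouse exceeded 1.56. The gene was under the filter on low counts, so the tests below cover 8 of the 9 members, and it is described here by its counts.

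In order of the mean FPKM over the 15 mice, *Zg16* stood at 4586, *Tff3* at 2559, *Clca1* at 1288, *Spink4* at 1194, *Fcgbp* at 846, *Agr2* at 695, *Muc2* at 621, *Spdef* at 15 and *Retnlb* at 0.677. *Zg16* exceeded *Tff3*, and *Tff3* exceeded *Clca1*, in 15 of 15 mice. *Clca1* was above *Spink4* in 10 mice and *Agr2* above *Muc2* in 10, so these neighbours were not separated by their spread. *Zg16* was 13th, and *Muc2* 106th, of the 17752 genes by mean FPKM.

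The comparison of medium mDP PAC with water asked whether the longer chains altered the goblet cell program. No tested member passed the test. By edgeR's quasi-likelihood test with Benjamini-Hochberg adjustment over all 14386 tested genes, 0 of 8 had an adjusted p under 0.05, against 0.0139% of all genes (2 genes), and 0 of 8 had an unadjusted p under 0.05, against 14.8% of all genes. By DESeq2, 1 of the 8 had an unadjusted p under 0.05, against 14.9% of all genes, and none an adjusted one. The log2 fold changes were −0.14 (SE 0.15) for *Muc2*, 0.26 (SE 0.15) for *Tff3*, 0.14 for *Clca1*, −0.19 for *Fcgbp*, 0.17 for *Agr2*, 0.21 for *Zg16*, 0.01 for *Spdef* and 0.19 for *Spink4*, with adjusted p from 0.407 for *Tff3* to 0.983 for *Spdef*. Their median was 0.16, or 0.03 without medium mDP PAC mouse 3, and that of all genes 0.00.

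The intervals say how large a change these data leave room for. All 8 of the 95% intervals lay within 2-fold in either direction, as they did for 90.1% of all genes. The lowest bound was −0.48, for *Fcgbp*, and the highest 0.57, for *Tff3*, which are ratios of 0.715 and 1.49. The interval of *Muc2* ran from a change of −27.8% to one of 13.8%. Without medium mDP PAC mouse 3, the log2 fold changes of the short transcripts shrank, to 0.10 for *Tff3*, 0.02 for *Zg16*, 0.05 for *Agr2* and 0.11 for *Spink4*, while *Muc2* stood at −0.03 and *Fcgbp* at −0.19, again with no adjusted p under 0.05. Leaving out any 1 mouse, *Clca1* ranged from 0.07 to 0.23 and *Fcgbp* from −0.26 to −0.10.

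When group means of log2(FPKM + 0.1) were compared by exact permutation, two-sided, with 5 mice against 5 and a smallest possible p of 0.0079, 1 of the 9 members had p under 0.05, against 17.5% of all genes tested. It was *Tff3*, with a mean difference of 0.32 and a permutation p of 0.0317. On log2 CPM no member had p under 0.05, and without medium mDP PAC mouse 3 none did on the FPKM scale, against 13.7% of all genes. In the same test, without water mouse 2 the number was 2, against 15.8% of all genes, and without water mice 1, 3, 4 or 5 it was 0.

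The comparison of low mDP PAC with water asked the same of the shorter chains. Again 0 of 8 members had an adjusted p under 0.05 by edgeR, where 0.0% of all genes did, and 0 of 8 had an unadjusted p under 0.05, against 3.61% of all genes. The log2 fold changes ran from −0.02 for *Fcgbp* to 0.19 for *Spink4*, with 0.12 for *Muc2*, 0.11 for *Tff3*, 0.15 for *Clca1*, 0.14 for *Agr2*, 0.03 for *Zg16* and 0.07 for *Spdef*, a median of 0.12 and adjusted p from 0.976 to 0.992. When 1 mouse was left out in turn, *Muc2* ranged from 0.04 to 0.23, *Tff3* from 0.06 to 0.15, *Clca1* from 0.08 to 0.24, *Agr2* from 0.03 to 0.22, *Spdef* from 0.02 to 0.13 and *Spink4* from 0.05 to 0.29. The 95% intervals of all 8 lay within 2-fold, as for 90.8% of all genes, and extended from −0.32 to 0.57.

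The exact permutation test for low mDP PAC gave 1 of 9 members with p under 0.05, against 4.74% of all genes. This was again *Tff3*, with a difference of 0.16 and a permutation p of 0.0476. It shares its 5 water mice with the other comparison, and no member passed on the TMM scale. The number was 4 without water mouse 2, against 6.46% of all genes. This is the mouse in which *Muc2*, *Tff3*, *Clca1*, *Fcgbp*, *Agr2*, *Zg16* and *Retnlb* were at the highest FPKM of the water group. The number was 1 without low mDP PAC mouse 3. It was 0 when any other mouse of these groups was left out.

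The direct comparison of the PAC preparations, medium against low mDP at the same dose and time, again gave 0 of 8 members with an adjusted p under 0.05 by edgeR (0.0% of all genes) and 0 of 8 with an unadjusted p under 0.05 (3.89% of all genes). *Muc2* had the largest log2 difference, −0.26 (SE 0.15, 95% interval −0.59 to 0.07, adjusted p = 0.896). It was −0.17 without medium mDP PAC mouse 3. The other 7 members lay between −0.17 for *Fcgbp* and 0.18 for *Zg16*, and *Fcgbp* ranged from −0.24 to −0.08 when 1 mouse was left out. All 8 intervals were within 2-fold, as for 93.0% of all genes. Without medium mDP PAC mouse 3 the differences of *Tff3*, *Zg16*, *Agr2* and *Spink4* turned from 0.15, 0.18, 0.03 and 0.00 to −0.04, −0.03, −0.11 and −0.09. These intervals bound the difference between the 2 chain lengths and do not show that both act alike.

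**Figure D2:**
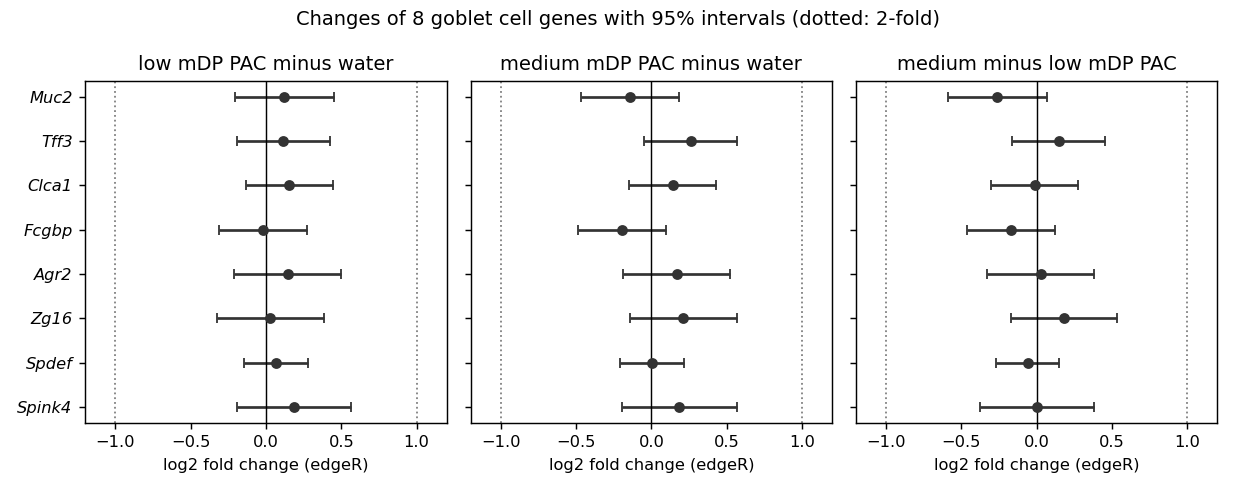
Log2 fold changes (edgeR, x axis) of the 8 tested goblet cell genes with their 95% intervals in the 3 comparisons; dotted lines mark 2-fold. Every interval includes 0 and lies within the dotted lines, and the most distant point is Muc2 in medium against low mDP PAC, at −0.26.

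*Retnlb* was fitted only when the filter on low counts was dropped. By edgeR its log2 fold change was then −1.57 (adjusted p = 0.592) for medium mDP PAC against water, 1.28 (adjusted p = 0.972) for low mDP PAC against water and −2.85 (unadjusted p = 0.0326, adjusted p = 0.861) for medium against low mDP PAC. The last 2 include low mDP PAC mouse 2, which held 68 counts where no other mouse of its group held more than 3.

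How the members varied together within the groups was examined after the group mean of each gene was subtracted from its log2 CPM, so that 15 mice could be set side by side. Between *Muc2* and the other 8 members 8 relations were computed. Only *Fcgbp* had an unadjusted permutation p under 0.05, as 25.0% of all other tested genes did, with Pearson's r = 0.59 (permutation p = 0.0209) and Spearman's rho = 0.57 (permutation p = 0.0304). With the extreme *Muc2* values removed, those of water mouse 2 and medium mDP PAC mouse 4 (the 2 farthest from its median), r was 0.48. For *Spink4* r was 0.40, for *Retnlb* 0.37, for *Spdef* 0.37, for *Clca1* 0.27, for *Agr2* 0.07, for *Zg16* −0.17 and for *Tff3* −0.31.

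These values depended on medium mDP PAC mouse 3. Without it, *Muc2* had r = 0.80 with *Fcgbp* (permutation p = 0.00075), 0.72 with *Spink4* (permutation p = 0.00306), 0.59 with *Zg16* (permutation p = 0.0253), 0.59 with *Spdef* (permutation p = 0.0280) and 0.55 with *Clca1* (permutation p = 0.0431), 5 of 8 members instead of 1. Over these 14 mice 16.7% of all other tested genes had such a p with *Muc2*. With *Tff3*, r rose to 0.29. The number was 0 without water mouse 2 and 0 without medium mDP PAC mouse 5, and 1 without any other mouse.

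**Figure D3:**
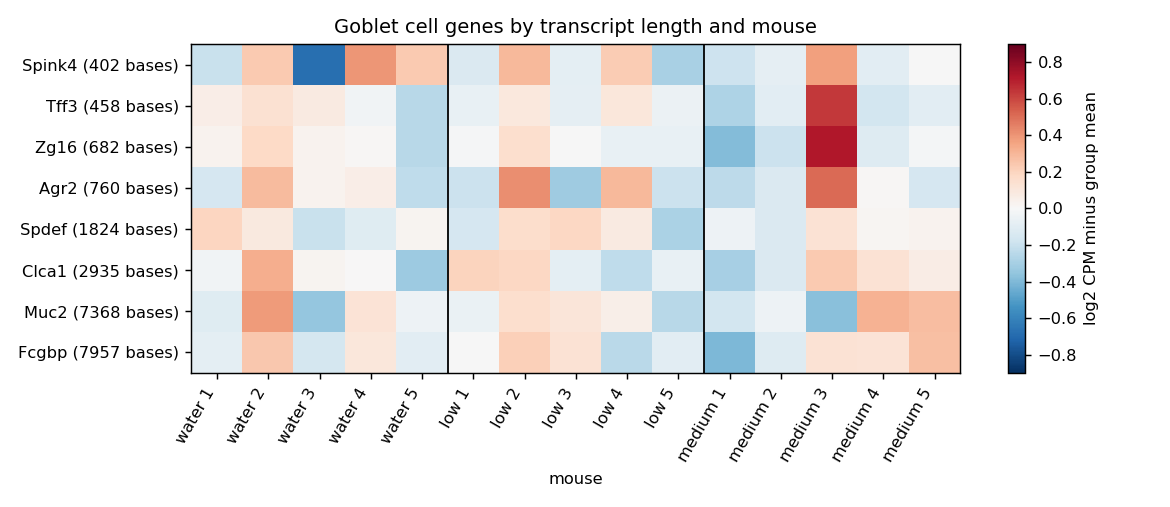
Log2 CPM minus the group mean (colour) of 8 goblet cell genes, ordered by transcript length from Spink4 (402 bases) to Fcgbp (7957 bases), in each of the 15 mice; the mice called medium are the medium mDP PAC group. In medium mouse 3 Zg16 and Tff3 stand 0.72 and 0.64 above their group mean and Muc2 0.37 below it.

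Among the 28 pairs of the 8 tested members, r was positive in 26 over 15 mice, with a median of 0.38, and in 27 over the 14 mice without medium mDP PAC mouse 3, with a median of 0.44. The strongest pair over 15 mice was *Tff3* with *Zg16* (r = 0.95), at 0.79 over 14 mice. Of the genes for proteins secreted with the mucin, r over 14 mice was 0.87 for *Clca1* and *Zg16*, 0.79 for *Fcgbp* and *Zg16* and 0.74 for *Clca1* and *Fcgbp*. *Tff3*, the other of these genes, had r = 0.79 with *Zg16*, 0.56 with *Clca1* and 0.30 with *Fcgbp* over the same mice. *Spink4* had r = 0.04 with *Clca1*, 0.09 with *Zg16* and 0.39 with *Fcgbp* over the same mice. Relative to their groups, water mouse 2 and low mDP PAC mouse 2 were above the mean in all 8 members, and low mDP PAC mouse 5 and medium mDP PAC mouse 1 were below it in all 8. This held for each of these 4 mice without medium mDP PAC mouse 3. Medium mDP PAC mouse 2 was below in all 8 with mouse 3 in its group mean and in 6 of 8 without it. The pairs share libraries, so these correlations are a description, given without p-values.

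**Figure D4:**
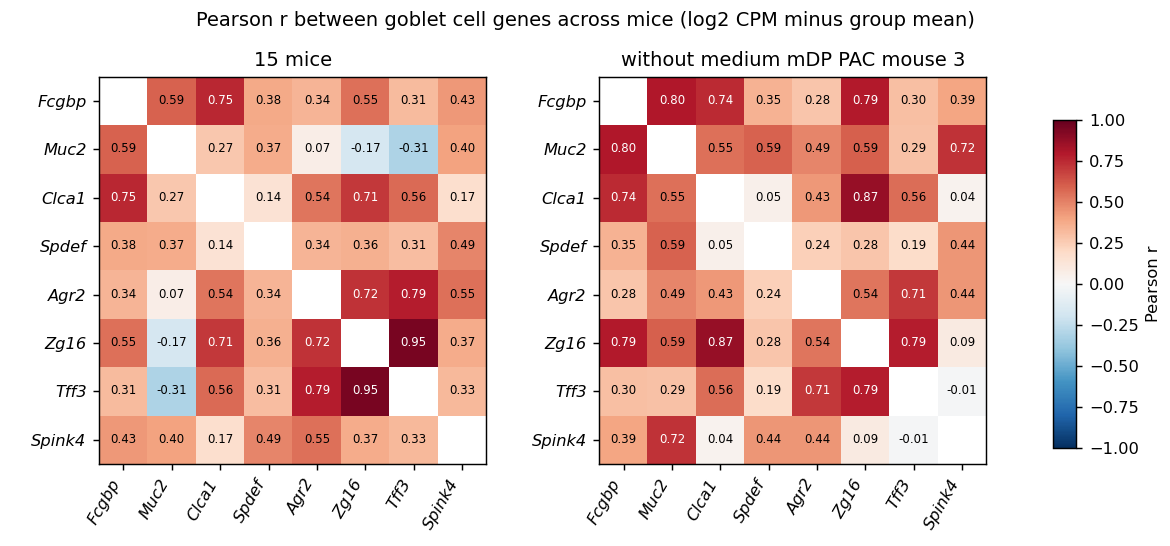
Pearson's r (colour and printed value) between 8 goblet cell genes across mice, on log2 CPM minus the group mean, over 15 mice (left) and without medium mDP PAC mouse 3 (right); genes are ordered from the longest to the shortest transcript. Muc2 and Tff3 turn from −0.31 to 0.29, and Clca1 and Zg16 from 0.71 to 0.87.

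The genes most like *Muc2* in this measure, among the 14386 tested, were *Mcf2l* (r = 0.97), *Sned1* (0.93), *Znrf3* (0.91), *Sntb2* (0.89) and *Zfp462* (0.88), at mean levels between 1.55 and 8.93 FPKM. The member nearest to *Muc2*, *Fcgbp*, came 816th in that order, and *Spink4* came 2637th. *Muc2*, *Mcf2l*, *Sned1*, *Sntb2* and *Zfp462* were each lowest of their group in medium mDP PAC mouse 3. Over the 14 mice without it these neighbours had r = 0.96 for *Mcf2l*, 0.93 for *Sned1*, 0.89 for *Znrf3*, 0.85 for *Sntb2* and 0.84 for *Zfp462*, at places 1, 3, 7, 16 and 19, while *Fcgbp* came 33rd and *Spink4* 143rd. Places 2, 4 and 5 then went to *Mlph* (0.93), *Creb3l4* (0.90) and *5330417C22Rik* (0.90), of which *Creb3l4* is on the list of goblet cell transcription factors used below. Those most like *Retnlb* were *Ttc39a* (0.90), *Il18* (0.90), *Fut2* (0.89), *Slc6a14* (0.88) and *Dmbt1* (0.87). The fucosyltransferase gene *Fut2* and *Ttc39a* belong to the wider goblet cell lists used below.

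The *Retnlb* neighbours were high in the same animal. In low mDP PAC mouse 2, *Slc6a14*, an amino acid transporter gene, was at 13.1 FPKM and in no other mouse above 0.48. *Fut2* was at 6.78 there and at most 2.84 elsewhere, and *Dmbt1*, which encodes a mucosal scavenger protein, was at 327 there and at most 206 elsewhere. The second highest *Dmbt1* and *Fut2* were in water mouse 2, which also had the second highest *Retnlb*. Without low mDP PAC mouse 2, r with *Retnlb* was 0.76 for *Ttc39a*, 0.70 for *Fut2*, 0.68 for *Il18*, 0.66 for *Dmbt1* and 0.58 for *Slc6a14* over 14 mice, on counts of 0 to 16. The 7 genes of a colon list were also summed, and reached 314 FPKM in low mDP PAC mouse 2 and 88.7 to 165 in the other 14 mice. Of the 314, *Saa1*, a serum amyloid gene, made up 165.4, with at most 40.1 elsewhere, in water mouse 2. The other 6 genes summed to 149 in low mDP PAC mouse 2 and to 86.9 to 157 elsewhere, and *Car1* and *Aqp8*, which define the colon, had at most 2 counts in a mouse.

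The following neighbours of other members were chosen after their values were seen. *Clca1* was nearest to *Gcnt3* (r = 0.91), which encodes an enzyme that branches the O-glycans of mucins. *Agr2* had *Hes1*, a Notch target that represses the secretory fate, among its 5 nearest (r = 0.92). *Hes1* and *Agr2* were both highest in medium mDP PAC mouse 3, where *Hes1* was at 35.4 FPKM and at most 28.4 elsewhere, and over the other 14 mice r was 0.87 and *Hes1* came 15th. The 5 nearest to *Spink4* included *Defa26* (0.92) and *Lyz1* (0.89), which encode an alpha-defensin and lysozyme, granule proteins of Paneth cells.

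Between members and gene lists 160 relations were computed, and those given here were chosen after their values were seen. The first is that of *Spink4* and the 10 Paneth cell genes. Pearson's r was 0.84 and Spearman's rho 0.71 over 15 mice, whereas r lay between 0.13 and 0.54 for the other 7 tested members. Water mouse 3 was the lowest in both measures, with 615 FPKM of *Spink4* and a summed FPKM of 20429 for the Paneth cell genes, where the other 14 mice ran from 32786 to 58021. Without that mouse r was 0.71, and it was 0.67 when low mDP PAC mouse 2, the next most distant on the Paneth cell axis, was left out as well. *Spink4* also had r = 0.76 with 6 crypt stem cell genes and 0.52 with 8 smooth muscle genes. The summed FPKM of the smooth muscle genes was lowest of all 15 mice in water mouse 3, at 277, and next lowest in water mouse 1, at 323, and these are the water mice with low *Spink4*. The part of smooth muscle in this relation was not tested.

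**Figure D5:**
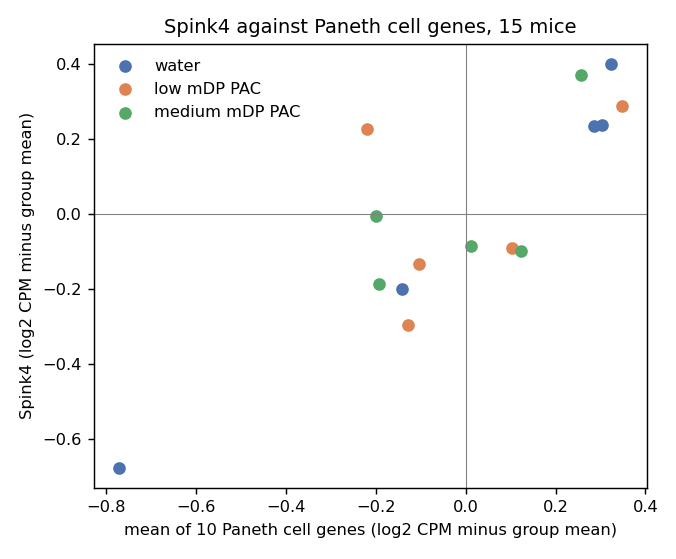
Spink4 (y axis) against the mean of 10 Paneth cell genes (x axis), each as log2 CPM minus the group mean, for 15 mice coloured by group. The point at the lower left is water mouse 3, and r is 0.84 with it and 0.71 without it.

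The wider goblet cell program was read from lists of regulators, glycosylation enzymes and other products. No gene of any list had an adjusted p under 0.05 in any comparison by edgeR, so the counts that follow are at an unadjusted p under 0.05, which 14.8% of all genes met for medium mDP PAC against water and 3.61% for low mDP PAC. Without medium mDP PAC mouse 3, 10.9% of 14455 tested genes met it for medium mDP PAC against water, and again no listed gene had an adjusted p under 0.05. Of 10 transcription factors, among them *Atoh1*, the master regulator of the secretory fate, 1 was lower with medium mDP PAC and none with low mDP PAC. That gene was *Klf4*, a factor of terminal differentiation, with 107 ± 15.7 FPKM with water and 88.4 ± 20.7 with medium mDP PAC (SD, n = 5, log2 fold change −0.38, adjusted p = 0.295). Without mouse 3 it was at −0.24 (unadjusted p = 0.0995 by edgeR), and no factor met the threshold. The medians of the list were −0.03 and 0.03.

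Of 19 genes for mucin folding and glycosylation 17 were tested, and with medium mDP PAC 1 (*Galnt12*, named after its value was seen) was higher and 3 were lower at an unadjusted p under 0.05. The lower genes were *St3gal6*, a sialyltransferase gene (log2 fold change −0.45), *Gcnt4* (−0.30) and *B3gnt3* (−0.25), with adjusted p from 0.217 to 0.278. *St3gal6* was also at −0.35 with low mDP PAC (adjusted p = 0.976), the only one of the list there. Both comparisons share their water mice. The list medians were 0.00 and 0.02. Without mouse 3, 18 genes of the list were tested, 1 was higher and 2 were lower, with *St3gal6* at −0.40, *Gcnt4* at −0.17 and *B3gnt3*, which no longer met the threshold, at −0.15.

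Of 16 other goblet cell products 14 were tested, and 2 were higher with medium mDP PAC at an unadjusted p under 0.05. *Ramp1*, which encodes a subunit of the receptor for the neuropeptide CGRP, was at 5.38, 5.26, 3.51, 5.12 and 5.31 FPKM with water and at 5.88, 6.40, 8.30, 6.18 and 7.40 with medium mDP PAC, so that the groups did not overlap (log2 fold change 0.37, adjusted p = 0.256, exact permutation p = 0.0079, the smallest it allows). An exact permutation p under 0.05 was met by 17.5% of all tested genes, and the share without overlap is not given here. *Klk1*, a kallikrein gene, was at 86.6 ± 11.8 with water and 123 ± 26 with medium mDP PAC (log2 fold change 0.41, adjusted p = 0.250), with 4 of 5 mice above the highest water mouse. In the low mDP PAC mice *Klk1* was at 120.05, 115.5, 86.9, 138 and 94, 3 of 5 above the highest water mouse (log2 fold change 0.30, adjusted p = 0.976). Both genes were highest in medium mDP PAC mouse 3. Without it *Ramp1* was at 0.33 and *Klk1* at 0.32, still with an unadjusted p under 0.05.

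The mucins that stay in the membrane belong to enterocytes as well as goblet cells. Of 9 listed names 4 genes were tested, all 4 with a log2 fold change below 0 for medium mDP PAC, and *Muc13* was the 1 with an unadjusted p under 0.05. *Muc13* was at 986, 979, 1116, 864 and 913 FPKM with water and at 634, 683, 575, 1109.8 and 713 with medium mDP PAC, 4 of 5 of these below the lowest water mouse (log2 fold change −0.48, adjusted p = 0.291). Without mouse 3, the lowest, it was at −0.36 (unadjusted p = 0.0818 by edgeR), and 3 of the 4 genes were below 0, *Muc1*, with at most 14 counts in a mouse, being at 0.15. *Muc2* was at −0.14 with all mice and at −0.03 without mouse 3. Whether the 2 mucins differed in their response was not tested.

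The type 2 cytokines that induce goblet cell genes were barely detected. *Il4*, *Il5*, *Il13* and *Il25* had at most 4 counts in any mouse and none of them passed the filter. Of the 7 tested genes of this list, *Il33*, an epithelial alarmin, had a log2 fold change of −0.45 with medium mDP PAC (adjusted p = 0.269) and −0.42 with low mDP PAC (adjusted p = 0.976), and *Il13ra1*, a receptor subunit, −0.25 with medium mDP PAC (adjusted p = 0.274). Without mouse 3 these were −0.43 for *Il33* and −0.18 for *Il13ra1* with medium mDP PAC, and *Il33* alone met the threshold.

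Close relatives of the members were read in the same way. Of 14 listed names 11 were tested, from *Clca2* at 0.175 to *Clca4b* at 989 mean FPKM, and with medium mDP PAC 4, all of the *Clca* family, were lower at an unadjusted p under 0.05. *Clca4b*, which is found in enterocytes, was at 1288, 1121, 1417, 1323 and 1133 FPKM with water and at 795, 828, 237, 945 and 807 with medium mDP PAC, without overlap (log2 fold change −0.89, SE 0.27, adjusted p = 0.202, exact permutation p = 0.0079). In the low mDP PAC mice it was at 997, 1080.4, 947, 735 and 1178, 4 of 5 below the lowest water mouse (log2 fold change −0.40, adjusted p = 0.976). For medium mDP PAC against water 17.5% of all tested genes had an exact permutation p under 0.05. *Clca4a* was at 346 ± 64.1 and 196 ± 68.4 (log2 fold change −0.91, adjusted p = 0.180) and *Clca3a2* at 5.32 ± 0.706 and 3.78 ± 0.832 (log2 fold change −0.59, adjusted p = 0.202), and *Clca3a1* was the other. Without mouse 3, 5 of the 11 were lower, with *Clca4b* at −0.63, *Clca4a* at −0.72 and *Clca3a2* at −0.64. These genes are near copies of each other, and how reads were divided among them is not given in the sources used here.

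The FPKM ratio of *Clca4b* to *Clca1* was 1.19, 0.769, 1.24, 1.15 and 1.18 in the water mice, 0.638, 0.742, 0.759, 0.641 and 0.915 in the low mDP PAC mice and 0.704, 0.683, 0.147, 0.652 and 0.568 in the medium mDP PAC mice. Every medium mDP PAC mouse was below the lowest water mouse, while *Clca1* itself overlapped between the groups. For *Spink4*, the relative *Spink1* had 332 ± 29.9 FPKM with water and 251 ± 53.4 with low mDP PAC (log2 fold change −0.45, adjusted p = 0.976). Its FPKM with medium mDP PAC was 224, 286, 431, 266 and 230.3 (log2 fold change −0.31, adjusted p = 0.407). Without mouse 3, which held the 431, it was at −0.45 (unadjusted p = 0.00669 by edgeR, adjusted p = 0.334) and was 1 of the 5 lower relatives.

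Other cells of the sample were read from marker lists to show what moved beside the goblet cell genes. Of 10 enterocyte genes 8 were lower with medium mDP PAC at an unadjusted p under 0.05, with a list median of −0.50, and 2 with low mDP PAC, with a median of −0.28. Examples were *Apoa1*, an apolipoprotein gene (−0.50, adjusted p = 0.195), *Slc5a1*, the sodium-glucose transporter gene (−0.59, adjusted p = 0.202), and *Krt20* (−0.42, adjusted p = 0.194). Without medium mDP PAC mouse 3 the number was 6 of 10 and the median −0.32, with *Apoa1* at −0.43, *Slc5a1* at −0.42 and *Krt20* at −0.30. The summed FPKM of this list was 14059 to 17896 in the water group, 11191 to 15814 in the low mDP group and 9325 to 15018 in the medium mDP group. Its part in the goblet cell results was not tested.

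Of 9 pan-epithelial genes 2 were lower with medium mDP PAC at an unadjusted p under 0.05, *Cdh17*, a cadherin gene (−0.35, adjusted p = 0.273), and *Vil1*, the villin gene (−0.33, adjusted p = 0.290). The list median was −0.17, and −0.11 without mouse 3, where these genes were at −0.20 and −0.17. None was lower with low mDP PAC, with a median of −0.09. The sums overlapped, from 7188 to 8616, 7205 to 8521 and 7513 to 8732 FPKM in the order of the groups above. All 8 smooth muscle genes had log2 fold changes above 0 in both comparisons with water, with medians of 0.42 and 0.31, and none had an unadjusted p under 0.05. Without mouse 3 the first median was 0.56. Their sums ran from 277 to 936, 585 to 1020 and 705 to 1124 FPKM, and the lowest, 277 and 323, were those of water mice 3 and 1. Peyer's patch B cell genes were uneven between mice, from 2.11 to 153 summed FPKM, and *Muc2* was lower where they were higher (r = −0.76 over 15 mice, −0.71 over 14, chosen after its value was seen). All 8 were below 0 for low mDP PAC against water (median −1.37) and above 0 for medium against low (median 1.40), where *Muc2* was at 0.12 and −0.26. For medium mDP PAC against water 5 were above 0 and 3 below (median 0.07), and without mouse 3 all 8 were below (median −0.44). None had an unadjusted p under 0.05. Of 5 tested mesothelium genes all were above 0 in both comparisons with water, with medians of 0.90 for medium and 0.59 for low mDP PAC and none at an unadjusted p under 0.05, and without mouse 3 the first median was 1.15, with 1 gene at that threshold. The sums of the mesothelium list were low and overlapped, from 7.1 to 20.7, 10.9 to 22.5 and 11.7 to 27.3 FPKM in the same order. With medium mDP PAC all 8 macrophage genes were below 0 (median −0.13, 1 at an unadjusted p under 0.05) and 4 of 5 plasma cell genes were (median −0.18, 1 at that threshold), and without mouse 3 the medians were −0.20 and −0.44, with 2 genes of each list at that threshold. With low mDP PAC 5 of the 8 and 4 of the 5 were below 0. Of 6 crypt stem cell genes 5 were above 0 with medium mDP PAC (median 0.20, or 0.25 without mouse 3), with 1 at that threshold. The part of smooth muscle, mesothelium, lymphoid tissue, macrophages and crypt stem cells in the results was not tested.

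Of 7 tested genes of the proximal small intestine 3 were lower with medium mDP PAC at an unadjusted p under 0.05, with a list median of −1.17, and 1 with low mDP PAC, with a median of −0.87. With low mDP PAC all 7 had a log2 fold change below 0, and with medium mDP PAC 6 did. *Gata4*, which marks the duodenum and jejunum, was at 7.09 ± 5.12 FPKM with water and 1.33 ± 1.63 with medium mDP PAC (adjusted p = 0.211), and at 0.48, 0.91, 1.97, 6.23 and 4.19 in the low mDP PAC mice (log2 fold change −1.42, adjusted p = 0.976). Water mice 4 and 5, the lowest in *Fabp6*, held 12.5 and 12.7 FPKM of *Gata4*. *Apoa4* was at 424 ± 152 with water, 201 ± 55.6 with medium mDP PAC (adjusted p = 0.162) and 241 ± 83.6 with low mDP PAC (log2 fold change −0.87, adjusted p = 0.976). Without mouse 3 the number was 3 of 8, with *Gata4* at −2.30 and *Apoa4* at −1.27 on the log2 scale. Of 6 tested distal ileum genes 3 were above 0 and 3 below with medium mDP PAC against water (median 0.03), or 5 and 1 without mouse 3 (median 0.11). With low mDP PAC all 6 were above 0 (median 0.12), and for medium against low mDP PAC 1 was above 0 and 5 below. The part of the proximal and distal genes' shift in the goblet cell results was not tested. In the same mice the sum of the 9 goblet cell genes was 9886 to 12659 FPKM in the water group, 11059 to 12799 in the low mDP group and 10432 to 18530 in the medium mDP group, the last value being that of mouse 3. Of 10 Paneth cell genes, 10 enteroendocrine genes (9 tested) and 6 tested tuft cell genes, *Gcg*, the proglucagon gene, was the 1 to pass an unadjusted p of 0.05 in the medium mDP comparison with water. It was at 39.4 ± 3.07 in the water group, 50.9 ± 7.72 in the low mDP group and 57.6 ± 14.5 in the medium mDP group, above every water mouse in 5 of 5 mice of each PAC group (exact permutation p = 0.0079 for each, and edgeR adjusted p = 0.976 for low and 0.202 for medium mDP PAC). An exact permutation p under 0.05 was met by 4.74% of all tested genes for low and by 17.5% for medium mDP PAC. Without mouse 3 the log2 fold change of *Gcg* for medium mDP PAC was 0.33 (adjusted p = 0.311). Its list did not move with it. Of the 9 tested enteroendocrine genes 5 were above 0 and 4 below with medium mDP PAC (median 0.03), or 4 and 5 without mouse 3. With low mDP PAC 2 were above 0 and 7 below (median −0.01).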

How the data were processed

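RNA-seq of the ileum of 15 mice was used, with 1 file for each mouse. Per the study's methods, reads of a BGISEQ-500 sequencer were cleaned with SOAPnuke and mapped to mm10 with Bowtie2, whereas the submitters' processing notes name HISAT and DESeq2; the counting tool is not given in the sources used here. The authors deposited an expected count for each gene, not normalized, and an FPKM scaled by transcript length and library. Genes that a mouse lacked in its file were set to 0.

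The test was edgeR 4.0.16 in R 4.3.3 on expected counts rounded to whole numbers (TMM, quasi-likelihood, 1 model of 15 mice, 3 contrasts), over the 14386 genes past its low-count filter. The adjusted p (Benjamini-Hochberg, threshold 0.05) covers all of them. The study used NOIseq, which was not run. Exact permutation tests (252 splits of 5 against 5 mice) used log2(FPKM + 0.1), and correlations used log2 CPM with a prior count of 2 and 100000 permutations. The code was tested on simulated data. Alternatives were DESeq2 1.42.0, limma 3.58.1, other normalizations, no filter, an epithelium covariate, a replicate block and leaving out each mouse. DESeq2 without its filter on the mean count was added after the data were seen.

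Counts of 56644 or more for *Muc2* leave little counting error, and the spread, that of mice and libraries together, limits its precision. The members and lists were chosen with earlier results of these data known. Genes outside the members were named as the up to 3 of smallest unadjusted p under 0.05 in each list and comparison with water, and as the 5 most like *Muc2* and *Retnlb*; other genes named were chosen after their values were seen.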

Additional observations from a re-analysis of the deposited data

Results flagged for a closer look

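In 5 groups of 5 mice there was a value far from the other 4, by the gap to the nearest mouse relative to the range (Dixon's criterion, critical value 0.71). There were 27 such groups, and the nominal rate for a single group is about 1 in 20. The groups share libraries, so this rate is no measure for their number, and the share over all genes is not given here. In medium mDP PAC mouse 3, *Tff3* was at 4466.82 FPKM (others 2413 to 2610), *Zg16* at 8350.36 (others 3928 to 4898), *Agr2* at 1066.19 (others 645 to 726) and *Spink4* at 1680.2 (others 1151 to 1254). These are the 4 members with transcripts under 1000 bases that were tested, in the mouse in which short transcripts as a class were 0.75 above long ones on the log2 scale, so the 4 values share 1 library. In low mDP PAC mouse 2, *Retnlb* was at 5.99 FPKM (others 0 to 0.27), which is 68 counts. The cause of these values was not tested.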

How the results depend on the processing

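No member had an adjusted p under 0.05 in any comparison under any alternative, the smallest being 0.248, and 472 of 504 alternative values of the 24 log2 fold changes kept their direction. The fit with the replicate block, which pairs mice of the same number, gave 0 members changed in each comparison. The numbers do not pair the mice, since same-numbered mice correlated between −0.31 and 0.45. The 32 reversed values belonged to 8 small changes. *Fcgbp* in low mDP PAC against water turned to 0.0081 (upper quartile), 0.0337 and 0.0336 (limma, both pseudocounts) and 0.0106 (epithelium covariate). In medium against low mDP PAC, *Clca1* turned to 0.0189, 0.0255, 0.0255 and 0.0213 in the same order and *Spink4* to −0.0144 (epithelium covariate). Leaving out 1 mouse, *Spdef* in medium mDP PAC against water ranged from −0.0425 to 0.0569. In low mDP PAC against water *Fcgbp* ranged from −0.077 to 0.0435 and *Zg16* from −0.0291 to 0.0752. In medium against low mDP PAC *Clca1* ranged from −0.0666 to 0.0557, *Agr2* from −0.1118 to 0.1396, *Spink4* from −0.0913 to 0.0765, *Tff3* from −0.0401 to 0.2147 and *Zg16* from −0.0343 to 0.2743. The exact permutation counts of 1 member fell to 0 on log2 CPM with TMM in both comparisons with water, and to 0 with the replicate block, where sign flips of 5 pairs cannot give a p below 0.0625. Leaving out 1 mouse they ranged from 0 to 2 (medium mDP PAC) and 0 to 4 (low mDP PAC), and the number correlated with *Muc2* from 0 to 5. The causes were not tested. With 5 mice a group, changes within the intervals given are not resolved.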
